A study of Mus musculus with 6 samples.

Results

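The complement components and regulators C3, C4b, Cfb, Cfi, C1qa, C1qb, C1qc, C3ar1 and C5ar1 were followed in mouse kidney after renal ischaemia/reperfusion injury, a model of acute kidney injury made by stopping and then restoring renal blood flow, with and without the adhesion receptor gene Gpr97. Members were the probes that carry one of these 9 gene names in the scanner files. There were 11 such probes among 41174 probes on the array, and 8 of the 9 genes were among the 19615 genes with enough signal to be tested. The rule used gene names and no measured value, though the members were chosen with earlier results of these data known.

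Kidney RNA of mice labelled as male was hybridised to 6 one-colour arrays. Mice with Gpr97 deficiency gave 1 array after injury and 1 after sham surgery. Wild-type mice gave 2 arrays after injury and 2 after sham surgery. The sources used here do not give the allele, strain, age, duration of ischaemia or time of collection, nor whether arrays of a group came from separate animals, so p-values reflect the spread between arrays, which may be technical. Values are log2 processed signal minus the 75th percentile of the array, so 0 is a signal at that percentile and 1 unit is a factor of 2. Levels of different probes are not comparable, since each probe has its own binding strength.

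Slide 1 carried 1 wild-type injured array (array 2) and 1 wild-type sham array (array 1), and slide 2 carried the remaining 4. Both wild-type groups were thus split between slides, while Gpr97-deficient arrays were on slide 2 only. The slides also differed in scanner, in scan and in the version of the scanner software. On slide 1, 64.4% and 63.0% of probes were well above background (the scanner software's detection flag) on the sham and injured array. On the slide 2 arrays 69.2% to 71.1% were, and no spot was saturated. The lowest signal called well above background was -4.43 and -4.55 on slide 1, against -5.83 to -5.45 on slide 2. Adgrg3, the current name of Gpr97, had signals of -5.71 in the Gpr97-deficient injured kidney and -5.34 in the Gpr97-deficient sham kidney, against 1.10 and 1.25 in the wild-type injured kidneys and 0.24 and 0.05 in the wild-type sham kidneys. The kidney tubule genes Umod and Slc34a1 were well above background on all 6 arrays. Wild-type injured array 1, labelled male, had Xist, the RNA of the inactive X chromosome of females, at 4.10, against -7.51 to -5.38 on the other 5 arrays, and the Y-linked gene Ddx3y at -7.39, against 1.19 to 1.52. The injury changes of the members are therefore also given without this array.

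Complement is a cascade of plasma and tissue proteins that marks cells and microbes for clearance. The classical route starts when C1q, a complex of 3 kinds of chain made largely by macrophages, binds immune complexes or dying cells, and it proceeds through cleavage of C4. The alternative route amplifies C3 cleavage through factor B, the product of Cfb, while factor I, the product of Cfi, cuts the active fragments and stops it. The small fragments released from C3 and C5 act on the receptors C3ar1 and C5ar1 of myeloid and other cells. In the kidney, tubular epithelium is a known local source of C3 and factor B. In whole tissue RNA, fewer cells of a type and less RNA per cell cannot be told apart.

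The probes on which the main values rest are shown here because their position limits what each value measures. C3 had 2 probes in different parts of the transcript, and the C4b and C4a probes both list the accessions of both genes, which are near-identical copies. Each line is a probe as the scanner files give it, in lower case throughout since no base is singled out.
C3 probe 1: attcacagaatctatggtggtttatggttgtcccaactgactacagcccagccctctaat
C3 probe 2: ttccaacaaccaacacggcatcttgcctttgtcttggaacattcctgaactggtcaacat
Cfb: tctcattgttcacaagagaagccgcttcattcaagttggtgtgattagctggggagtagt
C4b: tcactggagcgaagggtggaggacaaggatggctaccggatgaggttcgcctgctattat
C4a: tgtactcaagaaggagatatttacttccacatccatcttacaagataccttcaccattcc
C1qa: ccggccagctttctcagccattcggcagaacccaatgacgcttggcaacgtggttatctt
C1qb: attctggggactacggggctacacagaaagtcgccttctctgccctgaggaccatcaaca

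In mm9, the build of the probe positions, C3 probe 1 (accession NM_009778) lies at chr17:57343416-57343475 on the minus strand, and begins at base 5053 of that transcript. C3 probe 2 lies upstream at chr17:57364538-57364695, begins at base 646, and its 60 bases span 158 genomic bases, so it crosses an exon junction. The Cfb probe lies at chr17:34993502-34993858 and likewise spans more genome than its length, 357 bases. The C4b probe lies at chr17:34866361-34866420 and the C4a probe at chr17:34958899-34958958. On chromosome 4 the C1qa probe lies at chr4:136452409-136452468 and the C1qb probe at chr4:136436578-136436637. Every one of these probes is on the minus strand.

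The first comparison asked which members differed between injured and sham-operated kidneys in both genotypes. C3 was higher on every injured array, Cfb was slightly lower on every injured array, and the injured and sham arrays overlapped for the other 6 tested members. No member passed limma's test, and neither did any other gene: 0 of 19615 genes (0%) had an adjusted p under 0.05 (3 genes, none a member, with a trended and robust variance prior), while 1131 genes were higher (5.77%) and 1277 lower (6.51%) at an unadjusted p under 0.05. At that unadjusted level 1 of the 8 members differed, namely C3. The median change of the 8 members was 0.12 on the log2 scale, against -0.04 for all genes tested, and 5 of the 8 had a change above 0.

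**Figure D1:**
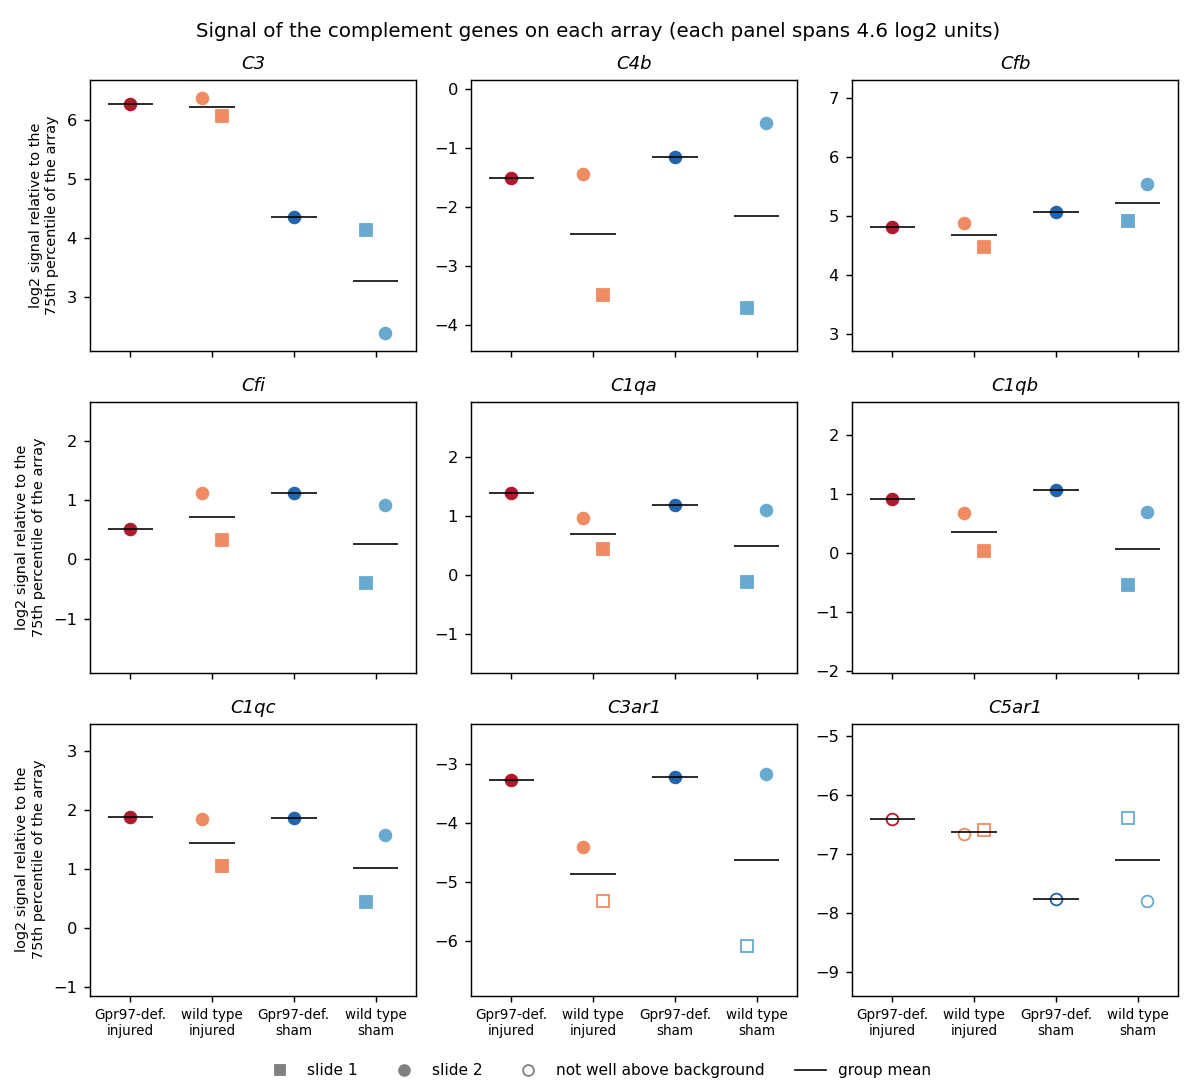
Signal of each of the 9 complement genes on each array, by group, in log2 units above or below that array's 75th percentile; squares are slide 1, circles slide 2, open symbols readings not well above background, and lines group means. C3 separates the injured from the sham arrays, while for C4b, the C1q chains and C3ar1 the slide 1 squares lie below the slide 2 circles of their group.

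C3 is the central component, on whose cleavage all routes of activation converge. Its signal was 6.28 in the Gpr97-deficient injured kidney and 6.38 and 6.08 in the wild-type injured kidneys, against 4.35 in the Gpr97-deficient sham kidney and 4.14 and 2.39 in the wild-type sham kidneys. All 3 injured arrays lay above all 3 sham arrays, an order that 10.1% of all genes showed. Before scaling, the processed signal was 51145 in the Gpr97-deficient injured kidney and 40629 and 38150 in the wild-type injured kidneys, against 11986 in the Gpr97-deficient sham kidney and 10576 and 3107 in the wild-type sham kidneys. After scaling, the injured arrays lay within 0.30 log2 units of each other, and the wide spread lay among the sham arrays, where wild-type sham array 2 was the lowest.

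Over both genotypes C3 was 2.61 higher after injury on the log2 scale (SE 0.53), a factor of 6.12 with a 95% interval of 2.41 to 15.6. The limma adjusted p was 0.262 and the unadjusted p 0.00411, so C3 was under 0.05 only before adjustment over all genes. Array by array within a slide, injured minus sham was 1.92 in Gpr97 deficiency on slide 2, 3.99 in wild type on slide 2 and 1.93 in wild type on slide 1. Being at least 2-fold higher in all 3 of these pairs was seen in 1.19% of genes, and among the members in C3 alone. Of the 8 members 2 were higher in all 3 pairs by any amount, C3 and C1qc, against 19.6% of genes, and 1 was lower, Cfb, against 25.3%.

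The size of the C3 difference depended on wild-type sham array 2. Leaving that array out gave 2.02 (SE 0.21), and leaving out wild-type sham array 1 gave 3.02 (SE 0.51). Without the array that carried Xist signal it was 2.43 (SE 0.64). The SE with all arrays was 0.53, and C3 was not called in any of these fits.

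C3 probe 1 was printed at 10 spots of each array, and the SD over these spots was between 0.04 and 0.08 on the log2 scale, so that spot-to-spot error was small beside the differences between arrays. C3 probe 2, printed once, read -1.60 in the Gpr97-deficient injured kidney and -1.17 and -1.68 in the wild-type injured kidneys, against -3.62 in the Gpr97-deficient sham kidney and -3.65 and -6.98 in the wild-type sham kidneys. It gave the same order, with no overlap and with wild-type sham array 2 again the lowest. There the probe was not well above background. Within slides its injured minus sham differences were 2.02 in Gpr97 deficiency and 1.97 in wild type on slide 1. In wild type on slide 2 the difference was at least 4.47, with the sham reading set to the lowest signal called well above background on that array, -5.64.

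**Figure D2:**
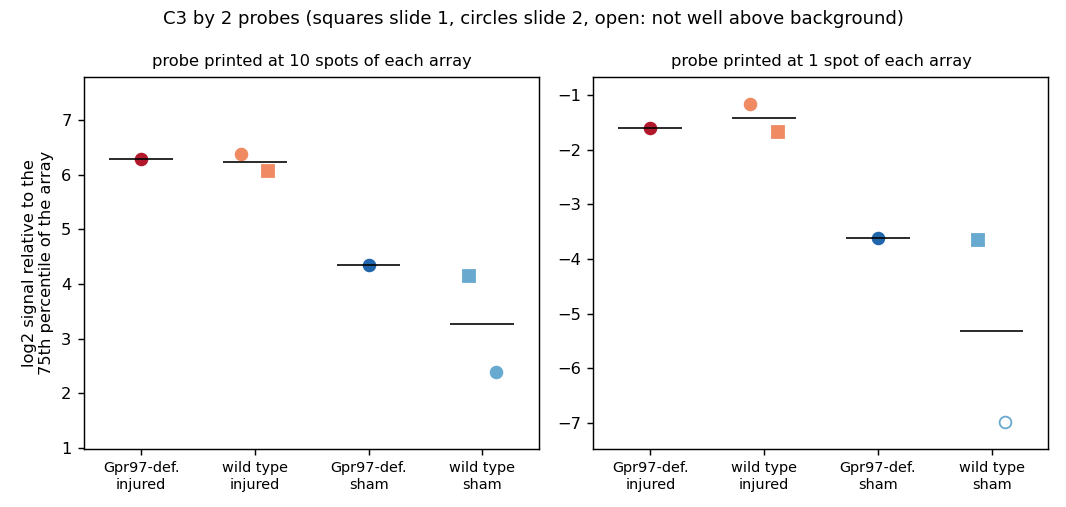
Signal of C3 by its 2 probes on each array, in log2 units above or below that array's 75th percentile, with squares for slide 1, circles for slide 2, an open symbol for the reading not well above background, and lines for group means. Both probes place the 3 injured arrays above the 3 sham arrays, and both place wild-type sham array 2 lowest.

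Genes of the injured tubule differed in the same direction as C3. All 6 genes of the tubular injury list were higher on every injured array, with a median change of 4.14. Their summed level was 8.72 to 9.10 on injured arrays, against 6.14 to 7.33 on sham arrays. Summed levels, here and below, are the log2 of added linear signals, so the strongest probes of a list dominate them. Here that was Spp1, which alone read 8.58 to 8.72 on injured arrays and 6.08 to 7.31 on sham arrays. Spp1, which encodes osteopontin, had a change of 1.96, and Lcn2, a secreted protein of damaged tubules, one of 5.90. Lcn2 read -3.49 in wild-type sham array 2, the lowest of the 3 sham arrays, as for C3. Other lists also held genes without overlap, an order that 10.1% of all genes showed upward and 12.4% downward. Of 6 fibroblast and matrix markers 4 were higher without overlap, with a median change of 1.14. Of 10 neutrophil markers 3 were higher without overlap, with a median of 1.505. Within slides the neutrophil median was 1.75 in wild type on slide 1 and 2.79 in wild type on slide 2. It was -0.86 in the Gpr97-deficient pair. Of 10 kidney tubule markers 6 were lower without overlap, with a median of -0.93. The part of these changes in the C3 difference was not tested. The hepatocyte list, of interest because liver makes plasma C3, had a summed level of 1.19 to 3.42 on injured arrays and 1.42 to 1.95 on sham arrays. Of its 6 measured genes, 2 were higher and 1 was lower without overlap, and the other 3 overlapped.

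The 5 tested genes outside the complement lists whose centred values lay nearest to those of C3 over the 6 arrays were Mybpc2, Lypd3, the unnamed probe A_52_P1021909, Stac2 and Capg, at root mean square distances of 0.37 to 0.42 log2 units. All but Capg were undetected on both wild-type sham arrays. There they read below the lowest signal called well above background, -4.43 on array 1 and -5.64 on array 2. Mybpc2, the nearest, read -5.48 and -6.41. Their likeness to C3 thus rests partly on background readings. Capg, which encodes an actin-capping protein, read 3.84 in the Gpr97-deficient injured kidney and 3.37 and 3.36 in the wild-type injured kidneys, against 1.13 in the Gpr97-deficient sham kidney and 1.99 and 0.31 in the wild-type sham kidneys. It also had its lowest value in wild-type sham array 2.

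Cfb, the serine protease of the alternative C3 convertase, did not follow C3. It read 4.83 in the Gpr97-deficient injured kidney and 4.89 and 4.48 in the wild-type injured kidneys, against 5.07 in the Gpr97-deficient sham kidney and 4.91 and 5.55 in the wild-type sham kidneys. All 3 injured arrays lay just below all 3 sham arrays, an order that 12.4% of all genes showed, so the order was common among genes. The gap between the highest injured and lowest sham array was smaller than the difference between the 2 wild-type sham arrays, 0.64.

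The additive change of Cfb was -0.45 (SE 0.25, limma adjusted p = 0.532), with a 95% interval of -1.09 to 0.19. Its differences within slides were -0.25 in Gpr97 deficiency and -0.66 and -0.44 in wild type, and the change was -0.54 without the array that carried Xist signal. With slide as a block the change was again -0.45 with a smaller error (SE 0.15), and its 95% interval of -0.86 to -0.03 then left out 0. The limma p was 0.0396 before and 0.265 after adjustment in that model.

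Cfi, the protease that inactivates C3b and C4b, read 0.51 in the Gpr97-deficient injured kidney and 1.13 and 0.32 in the wild-type injured kidneys, against 1.13 in the Gpr97-deficient sham kidney and -0.39 and 0.92 in the wild-type sham kidneys. The groups overlapped, and the additive change was 0.10 (SE 0.48, limma adjusted p = 0.964). The 95% interval ran from -1.13 to 1.33, so changes of 2-fold in either direction lay inside it. With slide as a block the interval was -0.72 to 0.92, and without wild-type injured array 1 the change was -0.24. Within slides Cfi was lower after injury in the Gpr97-deficient pair, by contrast with both wild-type pairs, a pattern of 8% of genes. The opposite pattern, in 7.64% of genes, was shown by 0 of the 8 members.

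C4b, whose product is cut to start the classical and lectin routes, read -1.51 in the Gpr97-deficient injured kidney and -1.44 and -3.48 in the wild-type injured kidneys, against -1.14 in the Gpr97-deficient sham kidney and -3.71 and -0.57 in the wild-type sham kidneys. Both slide 1 arrays were far below the slide 2 arrays, with a mean difference of -2.59 within wild type. The additive change was -0.33 (SE 0.97), with a 95% interval of -2.83 to 2.16, the widest of the 8 members. Within slides, injured minus sham was -0.37 in Gpr97 deficiency and -0.87 in wild type on slide 2, and 0.23 in wild type on slide 1. With slide as a block the SE fell to 0.25 at the same change (adjusted p = 0.527 by limma), and over the 4 arrays of slide 2 alone the change was -0.62 (SE 0.22, adjusted p = 0.475 by limma). Without wild-type injured array 1 the change was -0.92.

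C4a, the neighbouring copy of C4b in the mouse, was well above background on both wild-type injured arrays and on no other. Its signal was -5.33 in the Gpr97-deficient injured kidney and -4.73 and -3.34 in the wild-type injured kidneys, against -6.66 in the Gpr97-deficient sham kidney and -4.34 and -5.66 in the wild-type sham kidneys. Its additive change was 1.09 (SE 0.52, limma adjusted p = 0.476). Since each probe lists both copies, C4b and C4a signals could not be assigned to 1 gene.

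The 3 chains of C1q, which form 1 complex and are encoded side by side on chromosome 4, had nearly the same profile over the arrays. C1qa read 1.39 in the Gpr97-deficient injured kidney and 0.96 and 0.43 in the wild-type injured kidneys, against 1.18 in the Gpr97-deficient sham kidney and -0.12 and 1.10 in the wild-type sham kidneys. C1qb read 0.91 in the Gpr97-deficient injured kidney and 0.67 and 0.02 in the wild-type injured kidneys, against 1.06 in the Gpr97-deficient sham kidney and -0.56 and 0.69 in the wild-type sham kidneys. C1qc read 1.88 in the Gpr97-deficient injured kidney and 1.84 and 1.06 in the wild-type injured kidneys, against 1.87 in the Gpr97-deficient sham kidney and 0.44 and 1.59 in the wild-type sham kidneys. For each chain, the 2 lowest arrays were those of slide 1.

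No injury difference was detectable for the chains at this number of arrays. The additive changes were 0.20 for C1qa (SE 0.37), 0.13 for C1qb (SE 0.40) and 0.29 for C1qc (SE 0.39), with limma adjusted p of 0.872, 0.932 and 0.819. The 95% intervals reached from -0.75 to 1.16 for C1qa, from -0.88 to 1.15 for C1qb and from -0.72 to 1.30 for C1qc. A change as large as that of C3 lay outside all 3 intervals. With slide as a block the SEs were 0.19, 0.20 and 0.18, and the intervals narrowed to -0.31 to 0.72, -0.42 to 0.69 and -0.19 to 0.77. Without wild-type injured array 1 the changes were 0.06, -0.09 and 0.02.

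With each chain centred on its own mean, any pair of chains differed by a root mean square of 0.11 to 0.14 log2 units over the 6 arrays, and the largest difference on any array was 0.26. The gene outside the complement lists nearest to the mean of the 3 chains was Fcer1g, the signalling subunit of myeloid Fc receptors, at a distance of 0.065, followed by Slc2a3, Top3a, Lrrc49 and Adgrb2 at 0.10 to 0.12. Fcer1g read 2.19 in the Gpr97-deficient injured kidney and 2.01 and 1.23 in the wild-type injured kidneys, against 2.29 in the Gpr97-deficient sham kidney and 0.67 and 1.92 in the wild-type sham kidneys. All of these profiles share the low slide 1 arrays. The lowest signal called well above background there was -4.43 on wild-type sham array 1 and -4.55 on wild-type injured array 2. Adgrb2 read below both, at -5.73 and -5.31, and Top3a below the first, at -4.96. For these genes the low slide 1 values were thus partly undetected signal.

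**Figure D3:**
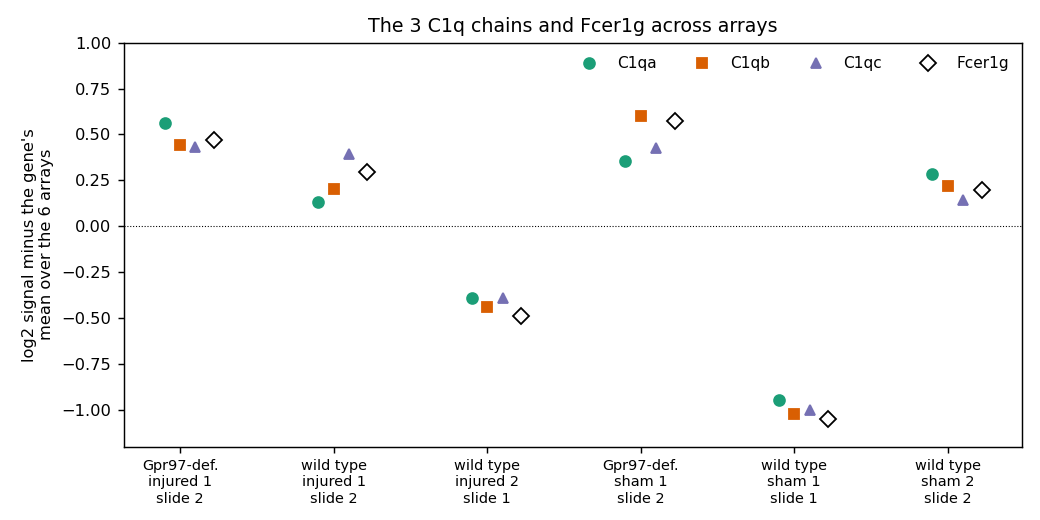
Log2 signal of the 3 C1q chains and of Fcer1g on each array, minus the mean of that gene over the 6 arrays. The 4 genes move together, and their 2 lowest arrays are the 2 arrays of slide 1.

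Markers of the cells that make C1q were also measured. Of 14 macrophage and monocyte markers, Cd14 and Cd68 were higher and Csf1r was lower on every injured array, and the other 11 overlapped. Over all genes, 10.1% were higher and 12.4% lower in this way, and the median change of the 14 markers was -0.12. These 3 genes are named because they were the only ones without overlap, chosen after their values were seen. The summed level of the list was 7.51 to 7.55 on injured arrays, against 6.84 to 7.68 on sham arrays. That sum was mostly Ly6c2, which alone read 7.28 to 7.36 on injured arrays and 6.62 to 7.44 on sham arrays. All 14 markers of the list were well above background on every array. Its 2 genes of highest signal, Ly6c2 and Lyz2, had changes of 0.30 and -0.51. The part of these cells in the C1q values was not tested.

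Of the receptors, C3ar1, which binds the C3a fragment, was near the limit of detection. It read -3.27 in the Gpr97-deficient injured kidney and -4.40 and -5.32 in the wild-type injured kidneys, against -3.22 in the Gpr97-deficient sham kidney and -6.08 and -3.17 in the wild-type sham kidneys. The probe was not well above background on the 2 arrays of slide 1, and the groups overlapped. The additive change was -0.17 (SE 0.80), with a 95% interval of -2.22 to 1.88, and -0.42 without wild-type injured array 1. A second C3ar1 probe, detected on only 2 arrays, read between -5.39 and -4.39.

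C5ar1, the receptor for C5a, was not well above background on any of the 6 arrays and was not tested. Its signals of -7.80 to -6.39 lay below the lowest signal that was called well above background on each array, which was -5.83 to -4.43. Neutrophils carry this receptor, and the 10 neutrophil markers had a summed level of 3.70 to 4.95 on injured arrays, against 1.33 to 5.91 on sham arrays, the highest being the Gpr97-deficient sham kidney. S100a9 and S100a8, the neutrophil markers of highest signal, read 5.49 and 3.61 in that kidney. C5ar1 was thus not detectable with its probe, whatever the neutrophil signal of the array.

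**Figure D4:**
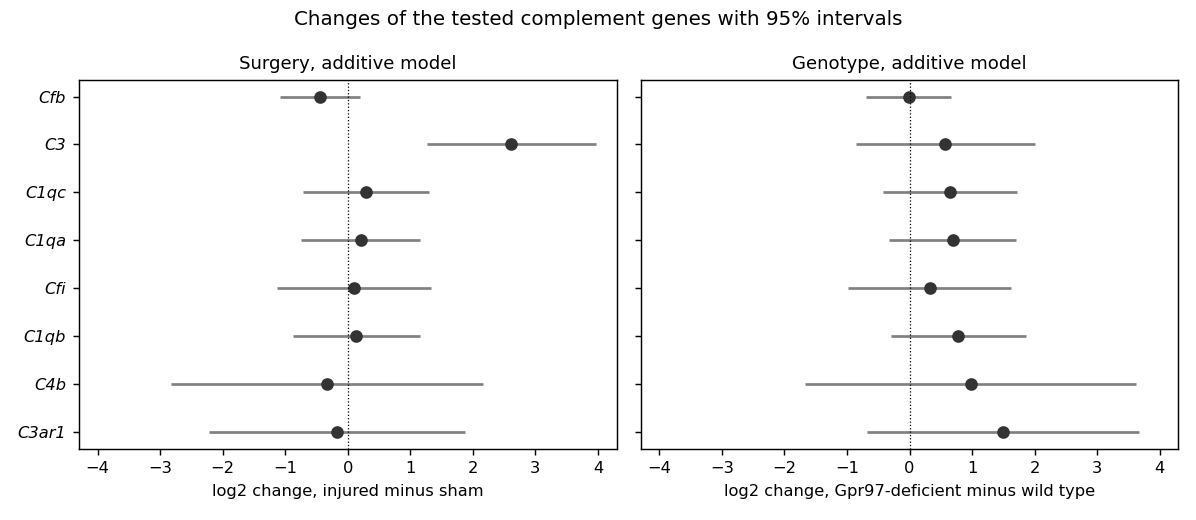
Log2 change of the 8 tested complement genes from the additive model, injured minus sham on the left and Gpr97-deficient minus wild type on the right, with 95% intervals as lines. In this model, which has no term for slide, the interval of C3 on the left is the only one of the 16 that leaves out 0.

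Taken separately by genotype, injury left C3 higher in both, with wider errors. In Gpr97 deficiency, with 1 array in each group and the spread borrowed from wild type, C3 was 1.92 higher after injury (SE 0.93, limma adjusted p = 0.9999), a factor of 3.80 with a 95% interval of 0.646 to 22.3. In wild type C3 was 2.96 higher after injury (SE 0.66, limma adjusted p = 0.773), a factor of 7.77 with an interval of 2.22 to 27.2. Without wild-type injured array 1, which left 1 wild-type injured array, the C3 change was 2.81. At an unadjusted p under 0.05, 1.44% of genes were higher and 1.3% lower in Gpr97 deficiency and none of the 8 members, while in wild type 3.34% were higher and 3.03% lower, with C3 among those higher. The median change of the 8 members was -0.10 in Gpr97 deficiency, against -0.05 for all genes, and 0.24 in wild type, against -0.03.

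Whether the injury response differed between genotypes was tested as an interaction. For C3 it was -1.03 (SE 1.14, limma adjusted p = 0.99997), with a 95% interval of -4.16 to 2.09. The interval held no difference, and also a response several-fold smaller or several-fold larger in Gpr97 deficiency. Its size turned on the wild-type sham arrays, being -0.16 without array 2 and -1.91 without array 1, and it was -0.88 without wild-type injured array 1. At an unadjusted p under 0.05, 0.612% of genes were positive and 0.877% negative and none of the 8 members, whose median interaction was -0.24, against -0.02 for all genes.

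The second question of the design was what Gpr97 deficiency changed. Between the injured kidneys C3 was 6.28 with Gpr97 deficiency, against a mean of 6.23 ± 0.21 in wild type (SD, n = 2). Between the sham kidneys C3 was 4.35 with Gpr97 deficiency, against 3.27 ± 1.24 in wild type (SD, n = 2). The differences were 0.05 (SE 0.81) in injured and 1.09 (SE 0.81) in sham kidneys, with limma adjusted p of 0.99995 and 0.99984. The sham difference was 0.21 without wild-type sham array 2 and 1.96 without wild-type sham array 1. At an unadjusted p under 0.05 none of the 8 members differed in injured kidneys, where 0.698% of genes were higher and 0.734% lower, or in sham kidneys, where 1.23% were higher and 0.907% lower. Of the 8 members 4 lay above both wild-type arrays in the injured kidney, an order that 23.8% of genes showed, and 5 did so in the sham kidney, where 30.7% of genes did. In neither kidney did a member lie below both wild-type arrays, as 28.7% of genes did after injury and 32.3% after sham surgery.

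The C1q chains were the members that separated the genotypes over both surgeries. C1qa, C1qb and C1qc were higher on both Gpr97-deficient arrays than on all 4 wild-type arrays, an order that 4.29% of genes showed and that no other member showed. The opposite order, shown by 6.47% of genes, was seen in 0 of the 8 members. The additive differences were 0.69 for C1qa (SE 0.39), 0.78 for C1qb (SE 0.42) and 0.64 for C1qc (SE 0.42), each with a limma adjusted p of 0.994. The differences were smaller within slide 2. Against the 2 wild-type arrays of slide 2 alone, the Gpr97-deficient arrays were 0.25, 0.31 and 0.16 higher, and within wild type the slide 1 arrays were 0.88, 0.94 and 0.96 lower than the slide 2 arrays.

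The macrophage and monocyte markers, which had a median difference of 0.51 between Gpr97-deficient and wild-type arrays, lay in the same direction as the C1q chains. Within slide 2 that median was 0.08. Other blood cell lists had higher medians, 2.21 for the neutrophil markers and 2.96 for the 4 tested red blood cell markers, and 1.90 and 1.67 within slide 2. Both lists had their highest summed level in the Gpr97-deficient sham kidney, 5.91 and 8.06. In the Gpr97-deficient injured kidney the sums were 4.85 and 6.01. These lay between those of the wild-type injured kidneys, 3.70 and 4.95 for neutrophil markers and 2.63 and 7.03 for red blood cell markers. The summed levels thus set the genotypes apart in sham kidneys only. No gene of the 3 lists passed limma's test after adjustment. Without wild-type injured array 1 the C1q differences were 0.80, 0.95 and 0.84. The part of these cells in them was not tested.

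Being lower on slide 1 in both wild-type groups was common to most members. It held for 7 of the 8 tested members, all but C3, against 29.6% of all genes, while the median slide difference of all genes was 0.03. The differences of the 7 ran from -0.53 for Cfb to -2.59 for C4b, with Cfi at -1.06 and C3ar1 at -1.91. Slide was crossed with surgery in wild type, with 1 array of each group on each slide, and was therefore also fitted as a block.

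Of the other members, C3ar1 was 1.49 higher with Gpr97 deficiency (SE 0.85), C4b 0.98 (SE 1.03) and Cfi 0.32 (SE 0.51), and Cfb differed by -0.01 (SE 0.26). With slide as a block these became 0.54 for C3ar1, -0.32 for C4b, -0.21 for Cfi and -0.27 for Cfb, so that C4b and Cfi changed sign. For C3ar1 both slide 1 readings were not well above background. Set to the lowest detected signal of their arrays, they put the wild-type means at -4.47 after injury and -3.80 after sham surgery, in place of -4.86 and -4.62. Under normexp background correction the C3ar1 difference also changed sign, to -0.51. On slide 1 C3 was higher in the wild-type sham pair, by 1.75, but not in the injured pair, where the slide difference was -0.30. With Gpr97 deficiency C3 was 0.57 higher (SE 0.56) without the block and 0.93 with it. Without the block, 1.38% of genes were higher and 1.85% lower at an unadjusted p under 0.05, and none of the 8 members. The median difference of the members was then 0.67, against -0.01 for all genes. With the block the members' differences ran from -0.32 for C4b to 0.93 for C3.

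The wider pathway was described from lists of complement genes by role. Of 57 complement genes in 5 lists, all had a probe and 43 were tested, with a median change after injury of -0.10. The injured arrays lay above all sham arrays for 3 of the 43 and below them for 5, against 10.1% and 12.4% of all genes, and overlapped for the rest. At an unadjusted p under 0.05, 5 were higher and 4 lower, against 5.77% and 6.51% of all genes, and none passed after adjustment over all genes. Those above were C3, Clu and Masp1. Those below were Colec11, Cfb, C8g, Susd4 and C1ra, of which C8g, Susd4 and C1ra are named because the count is small, after their values were seen.

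Clu, which encodes clusterin, an inhibitor of the terminal complex and a known product of injured tubules, read 6.28 in the Gpr97-deficient injured kidney and 6.25 and 7.30 in the wild-type injured kidneys, against 4.43 in the Gpr97-deficient sham kidney and 4.28 and 4.71 in the wild-type sham kidneys. Its additive change was 2.14 (SE 0.34, limma adjusted p = 0.258). The injured arrays were far above the sham arrays in each genotype, and the change was 2.40 without wild-type injured array 1.

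Masp1, a protease of the lectin route, read 0.56 in the Gpr97-deficient injured kidney and -1.28 and 0.06 in the wild-type injured kidneys, against -2.05 in the Gpr97-deficient sham kidney and -1.57 and -2.14 in the wild-type sham kidneys, with a change of 1.70 (SE 0.49, limma adjusted p = 0.336), and 2.22 without wild-type injured array 1. Colec11, a lectin that recognises sugars on damaged cells, read -3.94 in the Gpr97-deficient injured kidney and -4.42 and -5.31 in the wild-type injured kidneys, against -3.77 in the Gpr97-deficient sham kidney and -2.73 and -2.53 in the wild-type sham kidneys, with a change of -1.55 (SE 0.51, limma adjusted p = 0.368). The lectin route thus held values in both directions.

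By role, 1 of 12 tested genes of classical and lectin initiation was higher without overlap and 2 were lower. Over all genes these shares were 10.1% and 12.4%. Of 7 central components and convertases, C3 was higher and Cfb lower. Among the 5 tested terminal components none was higher, and C8g, a subunit of the membrane attack complex, was lower by 0.91 (SE 0.17, limma adjusted p = 0.262). Of 12 regulators, Clu was higher and Susd4, an inhibitor of convertases, was lower, with a change of -0.90 (SE 0.34), and the 7 tested receptors all overlapped.

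**Figure D5:**
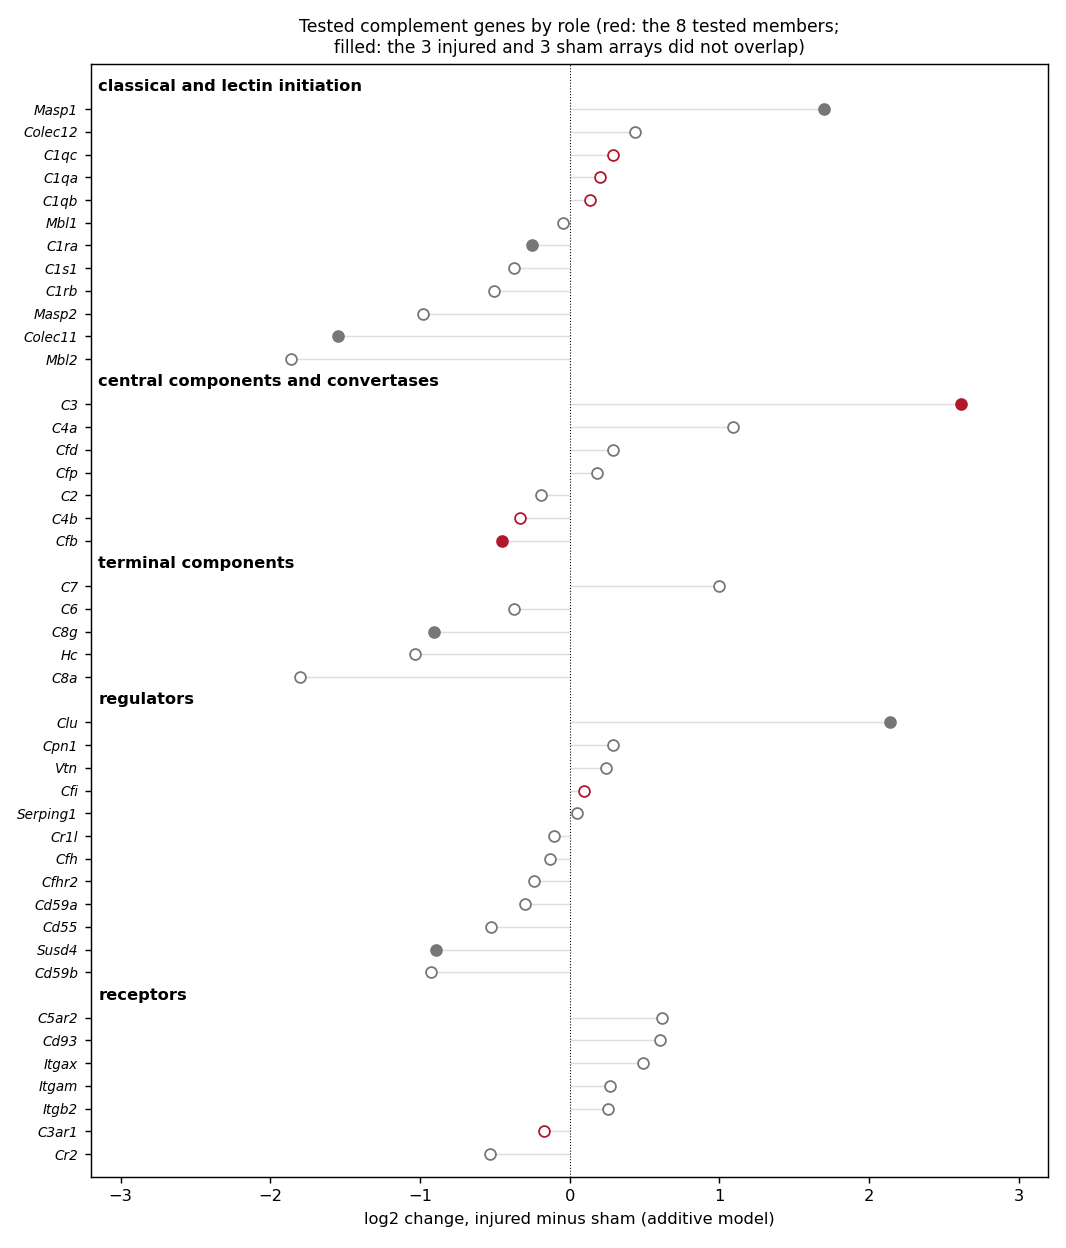
Log2 change after injury, injured minus sham from the additive model, of the 43 tested complement genes grouped by role, with the 8 tested members in red and filled symbols where the 3 injured and 3 sham arrays did not overlap. C3, Clu and Masp1 stand out upward, while the other members lie between -0.45 and 0.29.

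The upstream sequences of C3, C1qb and C1qc are shown because C3 had the largest difference of the members and the C1q chains moved together. RefSeq promoter windows (GRCm38.p6) matched 5 of the 9 members, and the 250 bases before the start were searched on both strands for TTGCNNAA, a C/EBP site core, for GAGGAA, a PU.1 core, and for an NF-kB site. The motifs do not overlap one another in these windows. All 3 genes are on the minus strand, at chr17:57228137-57228386 for C3, chr4:136886201-136886450 for C1qb and chr4:136892915-136893164 for C1qc. Each line runs 5′ to 3′ along the gene, with the motif matches in capitals.
C3: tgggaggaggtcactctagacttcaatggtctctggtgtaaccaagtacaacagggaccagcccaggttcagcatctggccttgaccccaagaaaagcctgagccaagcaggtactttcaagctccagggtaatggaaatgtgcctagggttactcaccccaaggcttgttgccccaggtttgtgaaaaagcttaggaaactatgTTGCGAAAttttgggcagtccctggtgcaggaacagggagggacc
C1qb: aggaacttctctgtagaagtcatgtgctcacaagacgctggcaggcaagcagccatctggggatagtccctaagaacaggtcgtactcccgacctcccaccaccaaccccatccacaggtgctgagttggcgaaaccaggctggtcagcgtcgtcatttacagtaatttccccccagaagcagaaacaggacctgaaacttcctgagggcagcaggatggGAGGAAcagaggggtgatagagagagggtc
C1qc: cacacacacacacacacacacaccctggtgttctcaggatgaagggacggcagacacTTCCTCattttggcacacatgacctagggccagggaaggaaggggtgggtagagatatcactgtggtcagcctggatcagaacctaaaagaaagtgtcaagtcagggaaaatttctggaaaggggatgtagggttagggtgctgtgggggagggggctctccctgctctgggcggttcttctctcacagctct

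The C3 window held 1 match to the C/EBP letters, beginning 45 bases before the start, and 9.56% of 32851 promoter windows held these letters. C1qb held 1 PU.1 match beginning 30 bases before the start, and C1qc held 1 on the opposite strand beginning 193 bases before it, as did 23.3% of windows. The NF-kB site was found in neither the C3 nor the C1q windows, and in 1.41% of all windows, C3ar1 among them. These are matches of letters and say nothing of binding.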

How the data were processed

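Spot intensity values came from Agilent Feature Extraction, per the file headers, which also place the probes on mm9. The processed signal, an intensity as deposited, was analysed, and the deposited detection and outlier flags are values other than intensity. The authors' deposited series values were taken as log2. They ranked probes as the scanner signals did, which by itself does not show the scale. Read as log2, these values gave a C3 change after injury of 2.71, against 2.61 from the main values. Medians of their columns lay between 6.07 and 6.09, and their centring is unknown. Per the submitters' processing notes the authors used limma, version not given. Per the labels' protocols, RNA was labelled with Cy3.

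Each array's 75th percentile was subtracted from the log2 signals after control and outlier spots had been removed and spots of a probe averaged. Accessions named 27668 of 41174 probes, symbols or synonyms 6060, and 7446 kept the file's name. The probe of highest mean stood for its gene. A gene was tested if detected on 2 or more arrays, which left 19615 genes, of which 9 lacked a value on some array, so that 19606 were ordered array by array. An additive model of genotype and surgery, and a model of group means, used all 6 arrays in limma (version 3.58.1, with R 4.3.3 and the package data.table in version 1.17.8). Tests were two-sided, with Benjamini-Hochberg adjustment over all genes and calls at 0.05. The fits were tested on simulated data. The number of arrays limits the precision. Alternatives were normexp, quantile normalization, the deposited values, other detection filters, the mean of probes, another variance prior, slide as a block or within slides, and each array left out. The members and lists were chosen with earlier results of these data known. Named genes were the members, C4a, other complement genes called or without overlap at a change of at least 1, the 5 genes nearest in pattern, and the 2 genes of highest signal of a marker list.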

Additional observations from a re-analysis of the deposited data

Results flagged for a closer look

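Cfi, the protease that inactivates C3b and C4b, moved in opposite directions in the genotypes on every array pair of a slide. Injured minus sham was -0.62 in the Gpr97-deficient pair, against 0.71 and 0.21 in the wild-type pairs on slide 1 and slide 2. The wild-type pair of slide 2 includes wild-type injured array 1, which carried Xist signal. With 1 wild-type array left out, the wild-type change ran from -0.20 to 1.12, and it was 0.06 without that array. The direction in wild type thus depended on the arrays kept. The pattern of 2 wild-type pairs up and the Gpr97-deficient pair down was seen in 8% of all genes. The difference itself, tested as an interaction with limma, was -1.08 (SE 1.01, adjusted p = 0.99997), with 1 Gpr97-deficient array in each group.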

How the results depend on the processing

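No member was called under any alternative that was run, and the members' changes after injury over both genotypes kept their sign in 105 of 119 member values. C3 after injury over both genotypes lay between 2.02 and 3.02 when 1 array was left out and was 2.35 with normexp background correction. In wild type alone it was 1.93 within slide 1 and 3.99 within slide 2. The number of genes called after injury was 1 in place of 0 under quantile normalization, with the deposited values and with slide as a block, and 3 with a trended, robust variance prior. That prior also called 1 gene, Adgrg3 itself, for Gpr97 deficiency in injured kidney and over both surgeries. Normexp turned C3ar1 to -0.51 over both surgeries. It also moved the median of all genes to 0.20 for the injury change and to -0.16 for the genotype difference. No paired analysis was possible because replicate numbers were given in accession order and do not pair samples, so pairing was by slide alone, within slides and with slide as a block. Probes that were not well above background, C5ar1 on all arrays and C3ar1 on 2, bound what can be said of the receptors.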
